A study of Mus musculus with 15 samples.

Results

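Carbonic anhydrases are zinc enzymes that interconvert carbon dioxide and bicarbonate, releasing or taking up a proton. They set how fast cells and their surroundings buffer acid, and they supply bicarbonate to transporters and carboxylating enzymes. The family is divided by where the protein sits: in the cytosol, on the outer face of the plasma membrane, in secretions or in mitochondria. Its related proteins keep the fold but lack catalytic activity because zinc-binding histidines are lost. The 10 genes described here were chosen by gene symbol: Car2, Car3, Car7 and Car13 (cytosolic), Car4 (anchored by a lipid to the outer membrane face), Car6 (secreted), Car12 and Car14 (membrane-spanning) and Car8 and Car11 (related proteins without activity). All 10 were found among 18784 genes with 1 symbol. The measured value in the rule was the mean level over all arrays, which would have selected between several probe sets of a gene, but each gene had 1 probe set and it decided nothing. The family was put forward with earlier results of these data known.

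The levels come from 15 single-colour Affymetrix arrays of E14TG2a.4, 1 mouse embryonic stem cell line that grows without feeder cells, at passage 17, in medium with 15% foetal bovine serum and leukaemia inhibitory factor (LIF). All cells, controls included, had received a lentiviral short hairpin RNA (shRNA) and were selected with puromycin at 2 µg per ml for 72 hours, starting 36 hours after transduction. Of these, 9 arrays form the Tet1 set, with 3 for a scrambled shRNA and 3 for either Tet1 hairpin (shRNA 4, shRNA 5). The other 6 form the Sin3A set, with 3 for its own scrambled shRNA and 3 for 1 Sin3A hairpin. Tet1 oxidises methylated cytosine in DNA and its protein binds DNA rich in CpG, and Sin3a is the scaffold of a histone deacetylase complex. Separate cultures are not stated for the replicates, so each p-value reflects only how far replicate arrays differ, possibly for technical reasons. The number of arrays limits the precision.

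As a check of the labels, each targeted transcript fell, with log2 changes of -1.78 and -2.10 for Tet1 with shRNA 4 and shRNA 5 and of -1.55 for Sin3a with the Sin3A shRNA (limma adjusted p = 2.08e-06, 1.51e-06 and 1.28e-05). The other target moved as well: Tet1 rose by 0.31 with the Sin3A shRNA (limma adjusted p = 0.00679), and Sin3a was called lower with both Tet1 shRNAs (-0.27 and -0.24, limma adjusted p = 0.0147 and 0.0219). The Sin3a calls were lost without scrambled replicate 1 (0.0504 for shRNA 4, 0.0669 for shRNA 5), and on leaving out a hairpin's own replicate 1 or 3 (0.0563 and 0.0539 for shRNA 4, 0.0868 and 0.0582 for shRNA 5). The call with shRNA 5 also needed scrambled replicate 3 (0.0582). Correlation of replicates over all probe sets was 0.994 to 0.998. Stem cell identity was checked with 7 markers, among them Pou5f1 and Nanog, and all 7 lay above the median probe set in each of the 5 groups. The mean value of an array was 7.08 to 7.11 for Tet1 arrays and 8.09 for Sin3A arrays, which points to separate normalization, and no level is set across them. Among Tet1 arrays, 49.1% of probe sets hold the same value on at least 2 of the 9 arrays, a property that 6 of the 10 genes share (Car4, Car6, Car8, Car11, Car12 and Car14), and it narrows the measured spread where the tied arrays are of 1 group. Whether probe sets of these related genes measure each transcript separately was not tested.

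Of the 10 genes, only Car4 and Car6 were called in all 3 knockdowns and also had an entry in the RefSeq promoter table, so their upstream sequences are shown. Each is the 250 bases before the annotated start in build GRCm38.p6, written 5′ to 3′ on the gene's strand, with each CpG dinucleotide in capitals. The Car4 sequence lies at chr11:84957504-84957753 on the plus strand and the Car6 sequence at chr4:150201136-150201385 on the minus strand.
Car4: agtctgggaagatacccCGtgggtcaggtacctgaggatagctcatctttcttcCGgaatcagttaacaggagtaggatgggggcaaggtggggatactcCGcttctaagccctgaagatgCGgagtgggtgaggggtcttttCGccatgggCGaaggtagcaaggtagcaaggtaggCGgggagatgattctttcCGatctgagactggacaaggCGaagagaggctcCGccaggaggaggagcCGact
Car6: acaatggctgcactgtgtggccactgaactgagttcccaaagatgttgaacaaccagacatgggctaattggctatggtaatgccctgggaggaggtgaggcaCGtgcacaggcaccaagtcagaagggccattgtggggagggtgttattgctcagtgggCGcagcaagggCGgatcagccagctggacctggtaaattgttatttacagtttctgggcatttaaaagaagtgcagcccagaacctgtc
The Car4 window holds 11 CpGs, and 35.6% of the 32851 upstream windows of that length hold as many or more. The Car6 window holds 3, and 71% of windows hold as many or more. Neither holds the TATA-box letters TATAAA on either strand, which 12.4% of windows do. Across the other entries the counts were 6 for Car12, 10 for Car14, 4 and 9 for the annotated starts of Car11, and 13, 27 and 32 for those of Car7. Car2, Car3, Car8 and Car13 are named only.

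The comparison of each Tet1 shRNA with scrambled asks which transcripts move when Tet1 is depleted. Car2, Car3 and Car4 fell with both hairpins, by 2.08-fold, 2.19-fold and 2.87-fold with shRNA 4 and by 1.46-fold, 1.55-fold and 2.08-fold with shRNA 5. Car6 was higher with both, by 1.36-fold and 1.33-fold, in calls that most alternatives removed. The Sin3A knockdown gave another pattern: Car2 and Car3 rose by 1.57-fold and 1.28-fold, while Car4, Car6, Car12 and Car11 fell by 1.57-fold, 1.503-fold, 1.35-fold and 1.27-fold. These arrays measure bulk RNA, in which fewer cells of a type and less RNA per cell cannot be told apart.

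**Figure D1:**
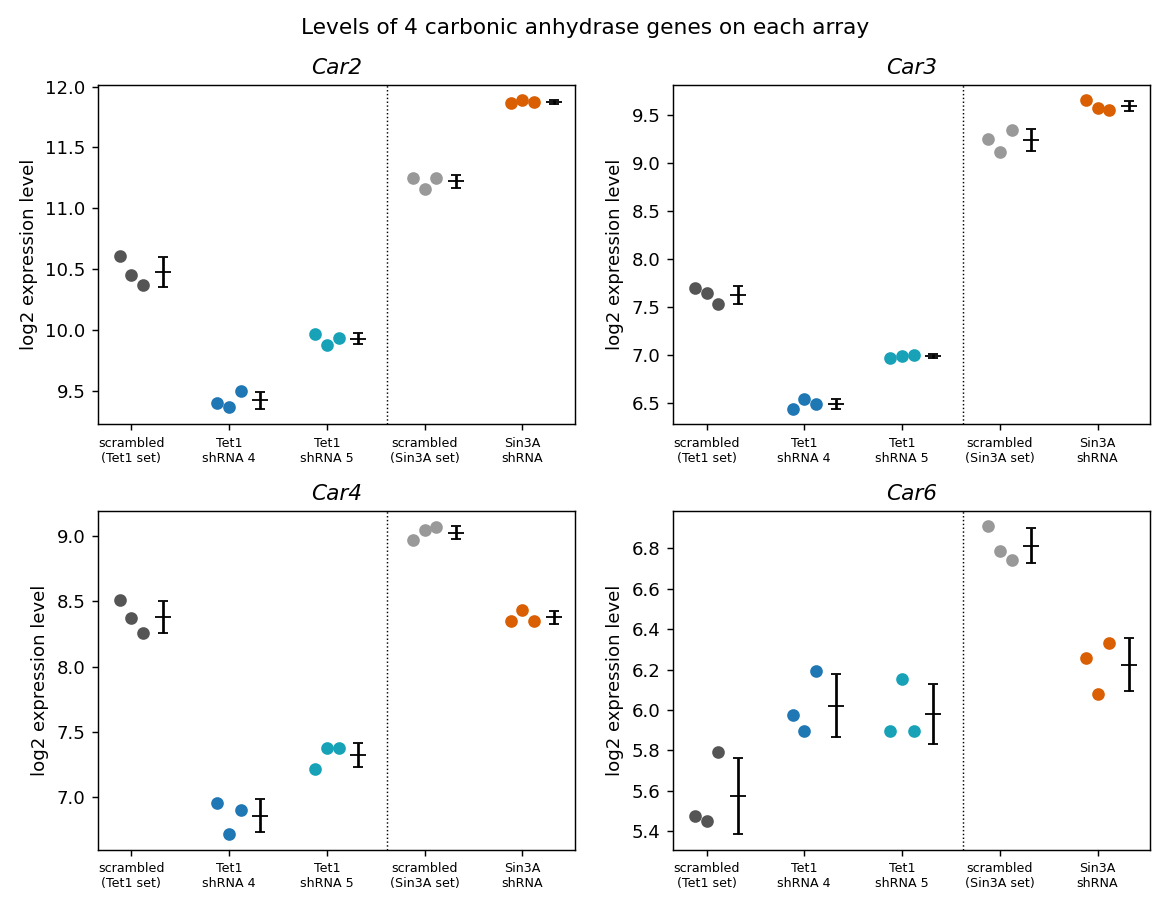
Log2 expression level of Car2, Car3, Car4 and Car6 on each of the 15 arrays, 1 point per array, with the group mean and SD (n = 3) beside the points; the dotted line divides the sets, which are not on a common scale. Car2, Car3 and Car4 are highest with scrambled and lowest with shRNA 4 in the Tet1 set, and Car2 and Car3 are higher with the Sin3A shRNA where Car4 and Car6 are lower.

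By count, 3 of the 10 genes fell and 1 rose with shRNA 4, where 4.71% of all 21212 probe sets were called lower and 6.88% higher. With shRNA 5, 4 fell and 1 rose, against 5.46% called lower and 8.37% higher among all probe sets, and 3 of these 5 calls remained without scrambled replicate 1 or without replicate 1 or 2 of shRNA 5. The same 3 genes fell and the same 1 rose with both hairpins, where 3.4% of probe sets were lower with both and 5.4% higher with both. With the Sin3A shRNA 4 fell and 2 rose, against 12.6% and 12.2%. The median log2 change of the 10 genes was -0.09, -0.19 and -0.16 with shRNA 4, shRNA 5 and the Sin3A shRNA, and that of all probe sets was -0.0032, -0.0044 and 0.0063. Both Tet1 comparisons share the scrambled arrays, and the family was put forward with results known, so these counts describe the genes and support no more.

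Among the cytosolic enzymes, Car2 is a fast and widely expressed form, abundant in red cells, kidney and osteoclasts. Its log2 levels were 10.61, 10.45 and 10.37 with scrambled, 9.40, 9.37 and 9.50 with shRNA 4 and 9.97, 9.88 and 9.94 with shRNA 5. The 3 groups did not overlap, with scrambled highest and shRNA 4 lowest. The log2 change was -1.06 ± 0.07 with shRNA 4 and -0.55 ± 0.07 with shRNA 5 (SE, limma adjusted p = 2.76e-05 and 0.00104). In the Sin3A set the levels were 11.25, 11.16 and 11.25 with scrambled and 11.86, 11.89 and 11.87 with the Sin3A shRNA. Every knockdown array lay above every control array there, a change of 0.65 ± 0.05 (SE, limma adjusted p = 0.000144).

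Car3, a cytosolic form with low activity that is abundant in muscle and fat, was measured at 7.71, 7.65 and 7.53 with scrambled, 6.45, 6.55 and 6.50 with shRNA 4 and 6.97, 6.998 and 7.01 with shRNA 5. Again no array of 1 group reached another group, and the groups stood in the order seen for Car2. The log2 change was -1.13 ± 0.06 with shRNA 4 and -0.64 ± 0.06 with shRNA 5 (SE, limma adjusted p = 8.07e-06 and 0.000187). With Sin3A depleted, Car3 was compared in its own set: it stood at 9.25, 9.12 and 9.34 with scrambled and 9.65, 9.57 and 9.55 with the Sin3A shRNA. The groups were apart by 0.21 between their nearest arrays, and the change was 0.36 ± 0.07 (SE, limma adjusted p = 0.00724).

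Car13, a cytosolic form found in several tissues, had levels of 8.96, 8.87 and 8.88 with scrambled, 8.90, 8.83 and 8.87 with shRNA 4 and 8.64, 8.64 and 8.74 with shRNA 5. The shRNA 4 arrays overlapped the controls, with a log2 change of -0.04 (95% interval -0.17 to 0.09, limma adjusted p = 0.775). It was lower with shRNA 5, with a log2 change of -0.23 ± 0.06 (SE, limma adjusted p = 0.0254). That call was lost without scrambled replicate 1 or 3 (adjusted p = 0.0783 and 0.061), without replicate 1 or 2 of shRNA 5 (0.0895 and 0.096), or with only those groups in the fit (0.053). Under the Sin3A shRNA the change of -0.22 missed the threshold (limma adjusted p = 0.0604), although its arrays at 10.20, 10.06 and 9.96 lay below the controls at 10.35, 10.30 and 10.23, and it passed without replicate 1 of that shRNA (0.0192), with an intensity trend (0.031) and with the filter on low values (0.0401). Car7, a cytosolic form best known from neurons, did not pass in any knockdown, with log2 changes of 0.19, 0.12 and 0.05 in the order shRNA 4, shRNA 5 and Sin3A shRNA. Its arrays ranged from 6.63 to 7.02 in the Tet1 set and from 7.83 to 8.11 in the Sin3A set, and knockdown and control arrays overlapped in each comparison.

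Car2, Car3 and Car13 belong to 1 cluster of carbonic anhydrase genes. In the RefSeq table the order of protein-coding genes is Rbis, Car13, Car1, Car3, Car2 and Gm9733, so Car3 and Car2 are direct neighbours. Car1, the abundant red cell form that lies between Car13 and Car3, was not called in any knockdown (log2 changes -0.10, -0.01 and -0.05). Its shRNA 4 interval ran from -0.49 to 0.28. The flanking Rbis, which functions in ribosome biogenesis, had values of -0.37, -0.37 and -0.34 (limma adjusted p = 0.0466, 0.0429 and 0.029). These calls were lost under 7 of 16, 7 of 16 and 5 of 11 alternatives. In the Tet1 set this was so without scrambled replicate 1 or 2 (adjusted p = 0.131 and 0.114 for shRNA 4, 0.118 and 0.109 for shRNA 5), shRNA 4 replicate 1 or 3 (0.154 and 0.159, 0.0602 and 0.0512) or shRNA 5 replicate 2 or 3 (0.063 and 0.0676, 0.15 and 0.138). In the Sin3A set it was so without scrambled replicate 1, 2 or 3 (0.0949, 0.0723 and 0.0525) or Sin3A shRNA replicate 2 or 3 (0.0631 and 0.0531). Gm9733, on the other side of Car2, had values of 0.03, -0.02 and -0.02 and was not called.

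**Figure D2:**
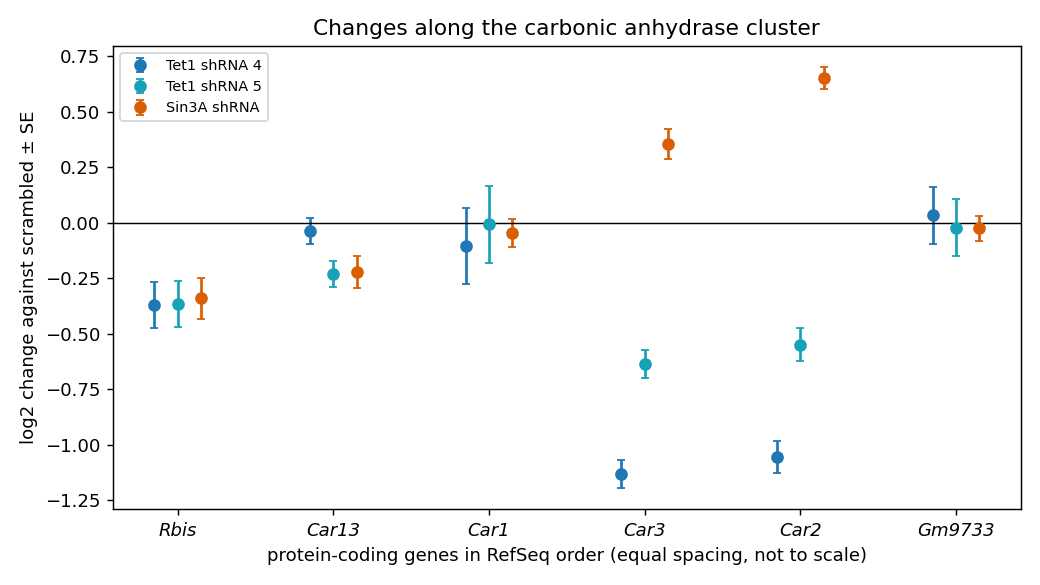
Log2 change against the scrambled arrays of the same set, with its SE (limma, n = 3 arrays per group), for the protein-coding genes of the carbonic anhydrase cluster and its flanks in RefSeq order, equally spaced. Car3 and Car2 lie below 0 with both Tet1 shRNAs and above 0 with the Sin3A shRNA, while Car1 and Gm9733 stay near 0. The level of Car1 was under the 25th percentile of probe sets in both sets.

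Car4, whose protein works on the outer face of the plasma membrane, showed the largest changes of the 10 genes with both Tet1 hairpins. Its levels were 8.51, 8.37 and 8.26 with scrambled, 6.96, 6.72 and 6.90 with shRNA 4 and 7.22, 7.38 and 7.38 with shRNA 5. The nearest arrays of scrambled and shRNA 4 were 1.30 apart, those of scrambled and shRNA 5 were 0.88 apart, and the hairpins did not overlap. The log2 change was -1.52 ± 0.09 with shRNA 4 and -1.06 ± 0.09 with shRNA 5 (SE, limma adjusted p = 1.11e-05 and 8.25e-05). In the Sin3A set Car4 stood at 8.97, 9.04 and 9.07 with scrambled and 8.35, 8.43 and 8.35 with the Sin3A shRNA. All knockdown arrays were lower, and the change was -0.65 ± 0.05 (SE, limma adjusted p = 0.000198).

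Car6 encodes the secreted form of saliva and milk. Its levels were 5.48, 5.45 and 5.79 with scrambled, 5.97, 5.90 and 6.20 with shRNA 4 and 5.90, 6.15 and 5.89 with shRNA 5. The knockdown arrays lay above the controls, by 0.11 and 0.10 at the nearest arrays, while the hairpins overlapped. The log2 change was 0.45 ± 0.12 with shRNA 4 and 0.41 ± 0.12 with shRNA 5 (SE, limma adjusted p = 0.0354 and 0.0465). The call was lost under 10 of 16 alternatives for shRNA 4 and 11 of 16 for shRNA 5, among them median centring (adjusted p = 0.0513 and 0.0618) and repeated quantile normalization (0.0533 and 0.0673). It was also lost without scrambled replicate 1 (0.113 and 0.136) or 2 (0.0975 and 0.126), without replicate 1 or 3 of shRNA 4 (0.0802 and 0.126) and without replicate 1, 2 or 3 of shRNA 5 (0.0794, 0.165 and 0.0783). Leaving out arrays of the other hairpin also removed it, for shRNA 4 without replicate 1 or 3 of shRNA 5 (0.0524 and 0.0521) and for shRNA 5 without replicate 1 of shRNA 4 (0.0696).

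In the Sin3A knockdown the Car6 levels were 6.26, 6.08 and 6.33, below the controls at 6.91, 6.79 and 6.74. This was a change of -0.59 ± 0.08 (SE, limma adjusted p = 0.00148). Car6 had a mean level under the 25th percentile of probe sets in the Sin3A set, the only 1 of the 10 genes to do so, and all 10 were above that percentile in the Tet1 set. In the Tet1 set the percentile was 5.48, next to the Car6 controls at 5.48, 5.45 and 5.79. The Car6 values thus lie in the lowest part of the measured range. Only 5 of the 10 genes, Car2, Car3, Car4, Car11 and Car13, had a mean above the median probe set in each set. Car6, Car7, Car8, Car12 and Car14 lay below it, and of these Car6 and Car12 were called with the Sin3A shRNA. Whether low levels account for the missing calls was not tested.

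The membrane-spanning Car12, known from kidney and many tumours, was listed at 5.95 on all 3 scrambled arrays of the Tet1 set, a tie that leaves no measured spread in that group. It was 6.01, 5.95 and 5.92 with shRNA 4 and 5.82, 5.95 and 5.83 with shRNA 5, and neither comparison passed (log2 changes 0.01 and -0.08, with 95% intervals from -0.12 to 0.14 and from -0.21 to 0.05). In the Sin3A set it fell from 7.11, 7.16 and 7.07 to 6.57, 6.75 and 6.72. No arrays overlapped, and the change was -0.43 ± 0.06 (SE, limma adjusted p = 0.00216). Car14, the other membrane-spanning form, did not pass in any knockdown (-0.15, -0.18 and -0.10). Its arrays with the Sin3A shRNA, at 7.04, 7.03 and 7.02, all lay below the controls at 7.14, 7.08 and 7.18 (95% interval of the change -0.22 to 0.01, limma adjusted p = 0.179).

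Of the related proteins without activity, Car8 binds the inositol trisphosphate receptor in Purkinje cells. It did not pass in any comparison, with changes of 0.09, 0.07 and 0.03 and intervals that stayed between -0.13 and 0.29. Car11 stood at 7.45, 7.77 and 7.42 with scrambled, 7.42, 7.45 and 7.36 with shRNA 4 and 7.41, 7.30 and 7.32 with shRNA 5. Scrambled replicate 2 was the highest of these arrays, shRNA 5 lay 0.013 below the lowest control at the nearest array, and neither change passed (-0.14 and -0.20, limma adjusted p = 0.434 and 0.198). With the Sin3A shRNA it went from 8.45, 8.21 and 8.43 to 8.17, 7.96 and 7.94, a change of -0.34 ± 0.09 (SE, limma adjusted p = 0.024). The Car11 call did not hold without scrambled replicate 1 or 3 (adjusted p = 0.0848 and 0.0761) and without Sin3A shRNA replicate 2 or 3 (0.0885 and 0.0719).

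**Figure D3:**
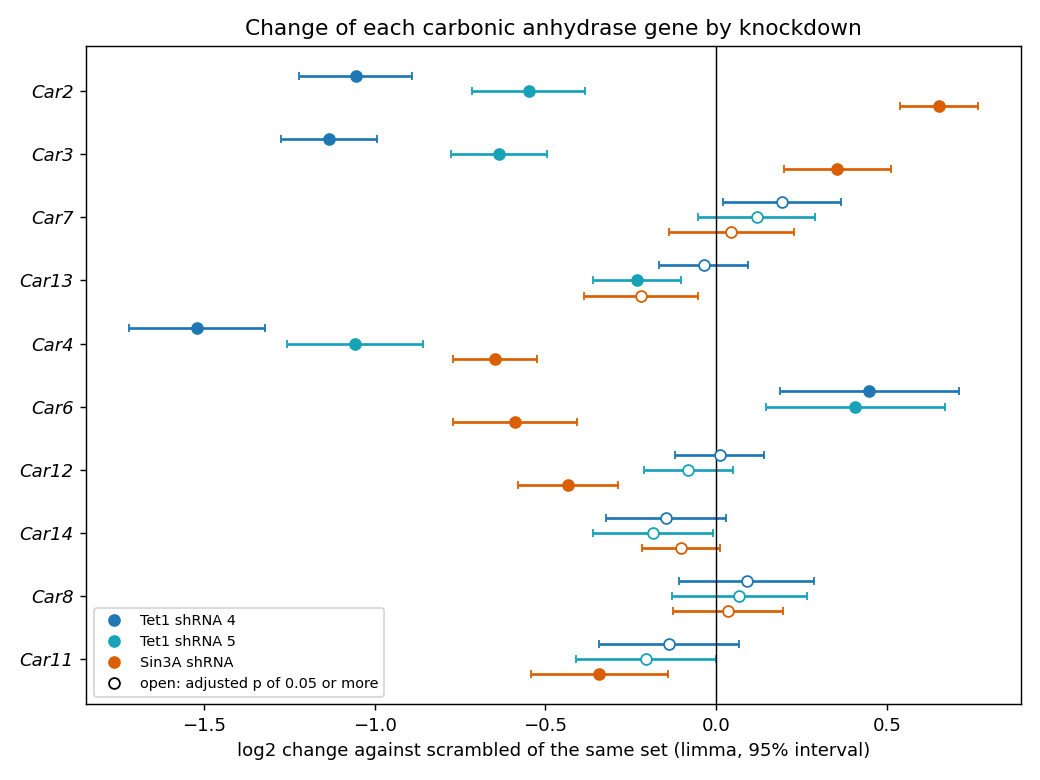
Log2 change of each of the 10 genes against the scrambled arrays of the same set, with its 95% interval (limma, n = 3 arrays per group); filled points passed the threshold of 0.05 on the adjusted p. Car2, Car3 and Car4 lie far below 0 with both Tet1 shRNAs, and with the Sin3A shRNA Car2 and Car3 lie above 0.

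The contrast between the hairpins asks where shRNA 5 differs from shRNA 4. Car2 and Car3 were higher with shRNA 5, by 0.51 ± 0.07 and 0.50 ± 0.06 (SE, limma adjusted p = 0.0424 and 0.0277), and 2 of 10 genes were called higher and 0 lower. Among all probe sets 0.0566% were called higher and 0.0849% lower, a split that centring each array on its median turned from 40% to 51.6% higher. At an unadjusted p under 0.05 the contrast held 4 of the 10 genes and 8.66% of all probe sets. Car4 had a difference of 0.46 that did not pass (95% interval 0.27 to 0.66, limma adjusted p = 0.112), although its hairpin groups did not overlap. Car13 was 0.19 lower with shRNA 5 and did not pass (limma adjusted p = 0.309). The Tet1 probe set itself had a value of -0.33 in this contrast, lower with shRNA 5. It did not pass either (95% interval -0.49 to -0.17, limma adjusted p = 0.165), although its hairpin groups did not overlap.

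The calls for Car2 and Car3 between the hairpins did not hold with fewer arrays, although the size of the difference did. Both were lost when any 1 of the 6 shRNA arrays was left out (adjusted p between 0.0891 and 0.23 for Car2 and between 0.0828 and 0.169 for Car3). Leaving out scrambled replicate 1 or 3 also removed both (0.0505 and 0.0553 for Car2, 0.0503 and 0.0539 for Car3), and leaving out scrambled replicate 2 removed that of Car2 (0.0539). The difference itself stayed between 0.48 and 0.55 for Car2 and between 0.47 and 0.52 for Car3 under all 16 alternatives.

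Whether the averaged Tet1 hairpins and the Sin3A hairpin moved a gene differently was tested on all 15 arrays, on log2 changes measured within each set. It passed for 5 of the 10 genes, against 20.0% of all probe sets in either direction. Car2 and Car3 had the widest gaps, at -1.45 ± 0.08 and -1.24 ± 0.09 (SE, limma adjusted p = 6.48e-08 and 3.41e-07), with opposite signs in the sets. Car4 fell in both sets and by more on the log2 scale with Tet1 shRNAs (-0.64 ± 0.10, limma adjusted p = 0.000415). The sets differ in scale: the median probe set with scrambled was 6.95 in the Tet1 set and 8.02 in the Sin3A set. The stem cell markers there averaged 12.08 to 12.12 and 12.45 to 12.50. Whether log2 changes of the sets are comparable in size was not tested. For Car4, with the same sign in both, the larger fall cannot be told apart from a difference in scale. Car6 and Car12 had positive differences of 1.02 ± 0.14 and 0.40 ± 0.08 (limma adjusted p = 0.000155 and 0.00211). For Car6 this joins the positive changes of 0.45 and 0.41 with the Tet1 shRNAs and the change of -0.59 with the Sin3A shRNA, and for Car12 it is mostly the change of -0.43 with the Sin3A shRNA. For Car11 and Car13 the difference did not pass (0.17 and 0.09, with intervals from -0.10 to 0.44 and from -0.10 to 0.27), so their calls in 1 knockdown are not shown to be particular to it. All 5 calls held under each of the 21 alternatives run.

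**Figure D4:**
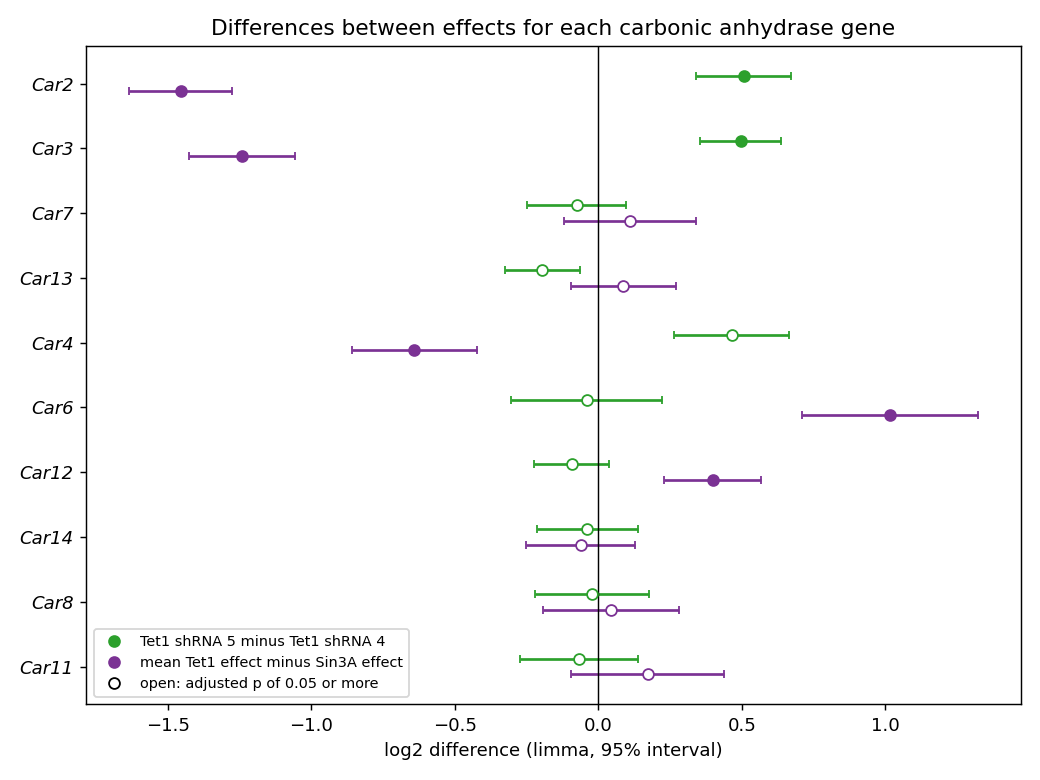
Log2 difference between the Tet1 hairpins, and for the averaged Tet1 hairpins minus the Sin3A hairpin, of each of the 10 genes with its 95% interval (limma, n = 3 arrays per group); filled points passed the threshold of 0.05 on the adjusted p. Car2, Car3 and Car4 lie below 0 and Car6 and Car12 above 0 for Tet1 minus Sin3A, and only Car2 and Car3 passed between the hairpins.

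The other 6 carbonic anhydrases of the array, Car1, Car5a, Car5b, Car9, Car10 and Car15, gave 0 calls with either Tet1 shRNA (1 at an unadjusted p under 0.05 in each comparison, Car5b). Among all probe sets 6.88% were called higher and 4.71% lower with shRNA 4, and 8.37% and 5.46% with shRNA 5. So few genes cannot show a difference from these shares. With the Sin3A shRNA 1 of the 6 was called higher and 1 lower, against 12.2% and 12.6%. Only 3 of the 6 lay above the 25th percentile of probe sets in each set. With the Sin3A shRNA Car5b, a mitochondrial form, rose from 7.47, 7.29 and 7.23 to 8.29, 8.30 and 8.42. This change of 1.01 ± 0.07 was 2.02-fold (SE, limma adjusted p = 0.000121) and exceeded those of all 10 genes above in the Sin3A comparison. Car5a, the other mitochondrial form, was called lower (-0.20, limma adjusted p = 0.0362), which was lost under 7 of 11 alternatives, among them without scrambled replicate 1, 2 or 3 (0.12, 0.089 and 0.0517) and without Sin3A shRNA replicate 2 or 3 (0.073 and 0.104). Car9, the form known for its induction by hypoxia, was not called, with changes of 0.03, 0.06 and -0.07.

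Bicarbonate made by these enzymes leaves or enters cells through transporters. Of 13 measured bicarbonate transporters, 1 rose and 0 fell with both Tet1 shRNAs, against 5.4% and 3.4% of all probe sets. With the Sin3A shRNA 0 rose and 2 fell, against 12.2% and 12.6%. The 1 gene was Slc4a5, a sodium bicarbonate cotransporter, which rose by 0.90 with each Tet1 hairpin (limma adjusted p = 6.41e-05 and 7.11e-05) and fell by 0.97 with the Sin3A shRNA (0.00014). The anion exchanger gene Slc4a2 was called lower by the Sin3A comparison (-0.22, limma adjusted p = 0.0382), which was lost under 6 of 11 alternatives, among them without any 1 of the 3 scrambled arrays (0.118, 0.07 and 0.0884) and without Sin3A shRNA replicate 2 or 3 (0.128 and 0.0518). The list's median change was -0.04, -0.08 and -0.03, close to 0 as for all probe sets.

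Of 12 measured acid extruders, 1 rose with both Tet1 shRNAs and 0 fell, against 5.4% and 3.4% of all probe sets. With the Sin3A shRNA 3 fell and 0 rose, against 12.6% and 12.2%. Slc16a1, a lactate and proton cotransporter, rose by 0.27 and 0.34 (limma adjusted p = 0.0229 and 0.00605). For shRNA 4 the call was lost on leaving out scrambled replicate 1 (0.0656), scrambled replicate 3 (0.0865), or the hairpin's own replicate 1 (0.0509) or 3 (0.0849). In the Sin3A set the lactate exporter gene Slc16a3 fell by 0.54 and the proton channel gene Hvcn1 by 0.43 (limma adjusted p = 0.000552 and 0.000613). The sodium-proton exchanger gene Slc9a5 was called at -0.25 (0.0308), which was lost without scrambled replicate 1 or 2 (0.0899 and 0.0907) and without Sin3A shRNA replicate 1 or 3 (0.062 and 0.0528). The list's median changes were -0.05, -0.07 and -0.09.

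Of 13 genes for users and channels of carbon dioxide and bicarbonate, 1 rose with both Tet1 shRNAs and 0 fell. The shares of all probe sets were 5.4% and 3.4%. The gene that rose was Rhbg, a gas and ammonium channel, at 0.44 and 0.69 (limma adjusted p = 0.0121 and 0.000978). With shRNA 5 alone Pcca, a subunit of propionyl-CoA carboxylase, was called at -0.48 (limma adjusted p = 0.03), and it is named here because its value was seen. That call was lost on leaving out scrambled replicate 1 (0.0987) or 3 (0.104), or shRNA 5 replicate 1 (0.112) or 3 (0.0731). In the Sin3A set the pyruvate carboxylase gene Pcx rose by 0.35 and Pccb, the other subunit of propionyl-CoA carboxylase, fell by 0.56 (limma adjusted p = 0.00915 and 0.00046). The list's median changes were -0.05, -0.09 and -0.05.

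Genes with the most similar pattern were sought over the 15 arrays, each value taken minus the mean of the scrambled arrays of its set. The points share hairpins and arrays, so these r values only describe likeness. Closest to Car4 were the adherens junction gene Cdh1 (r = 0.985), the tight junction gene Cldn6 (r = 0.985) and Aoah (r = 0.982). Cldn6 had log2 changes of -1.74, -1.33 and -0.57 with shRNA 4, shRNA 5 and the Sin3A shRNA, and Cdh1 had -0.45, -0.32 and -0.18. The Sin3A call of Cdh1 (limma adjusted p = 0.0265) was lost without any 1 of the 6 arrays (0.0503 to 0.101). Closest to Car2 were Faap24 (r = 0.988), the neurogenic factor gene Neurod1 (r = 0.985) and Trp53bp1 (r = 0.983). Neurod1 had changes of -1.76, -1.23 and 0.77, and Faap24 of -0.62, -0.44 and 0.39.

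Markers of cell types that stem cell cultures can hold were set beside these results. Among all probe sets, 6.88% were called higher and 4.71% lower with shRNA 4, and 8.37% and 5.46% with shRNA 5. With the Sin3A shRNA these shares were 12.2% and 12.6%. Of 6 neural markers, 2 were called lower and 0 higher in each knockdown, Pax6 and Nes, with changes of -0.64 and -0.75 for shRNA 4, -0.49 and -0.47 for shRNA 5 and -0.18 and -0.36 for the Sin3A shRNA. The other 4 were not called in any knockdown, with changes for shRNA 4 and shRNA 5 of 0.04 and 0.11 (Sox1), 0.12 and 0.30 (Tubb3), 0.00020 and 0.11 (Zic1) and -0.08 and -0.26 (Map2). The Pax6 call with the Sin3A shRNA was lost under 6 of 11 alternatives, among them without scrambled replicate 1 or 2 (adjusted p = 0.0793 and 0.0734) or Sin3A shRNA replicate 1, 2 or 3 (0.052, 0.0938 and 0.0563). The mean log2 level of the list was 7.30 to 7.37 with scrambled, 7.09 to 7.17 with shRNA 4 and 7.18 to 7.26 with shRNA 5, and 8.07 to 8.15 against 7.93 to 8.02 in the Sin3A set. Of 7 trophoblast markers 2 were called higher and 2 lower with each Tet1 shRNA, and 1 higher and 3 lower with the Sin3A shRNA. With the Tet1 shRNAs these were Eomes and Gata3 (higher) and Tfap2c and Krt7 (lower). The Krt7 calls were lost under 4 and 3 of 16 alternatives and that of Gata3 with shRNA 4 under 2. The 1 higher call with the Sin3A shRNA was Eomes (0.31, limma adjusted p = 0.0162), lost without scrambled replicate 3 (0.0543) or Sin3A shRNA replicate 2 (0.0652). The list's mean level was 6.65 to 6.80, 6.73 to 6.86 and 6.86 to 6.91 in the order scrambled, shRNA 4 and shRNA 5, and 7.95 to 8.01 against 7.76 to 7.83 in the Sin3A set. Of 7 primitive endoderm markers 1 was higher and 0 lower with shRNA 4, and 1 was higher and 1 lower with shRNA 5 and with the Sin3A shRNA. Its mean level ran from 6.57 to 6.79, 6.79 to 6.87 and 6.77 to 6.86 in the Tet1 set and from 7.77 to 7.82 against 7.75 to 7.77 in the Sin3A set.

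Of 7 fibroblast markers 1, Thy1, was called higher with both Tet1 shRNAs, and 2, Thy1 and Pdgfrb, were called lower with the Sin3A shRNA, Thy1 in a call lost under 5 of 11 alternatives. The mean level of that list was 6.24 to 6.40, 6.30 to 6.43 and 6.27 to 6.41 in the Tet1 set and 7.36 to 7.48 against 7.19 to 7.38 in the Sin3A set. Of 6 erythroid markers, set because Car1 and Car2 are red cell enzymes, 0 were called in any knockdown (0, 0 and 1 at an unadjusted p under 0.05) and 0 lay above the median probe set in any group. Of the 7 stem cell markers 1, Tdgf1, was called higher with both Tet1 shRNAs (lost under 3 and 10 of 16 alternatives) and 1, Nanog, lower with the Sin3A shRNA (-0.27). The part of the neural, trophoblast, endoderm and fibroblast markers in the changes of the carbonic anhydrase genes was not tested.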

How the data were processed

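Total RNA of 15 samples was hybridised, each to its own Affymetrix array. The authors deposited log2 expression values for 21212 probe sets. Per the submitters' processing notes affy, RMA and limma were used, and versions, settings and genome build are not given in the sources used here. RMA corrects background, normalizes arrays and summarises probes. Platform annotation gave 1 symbol to 18786 probe sets, several to 6 and none to 2420.

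Groups came from the sample titles. Linear models were fitted to all probe sets with limma 3.58.1 in R 4.3.3 (lmFit, eBayes, two-sided), with Benjamini-Hochberg adjustment over all 21212 and a threshold of 0.05, without a filter or pseudocount. The Tet1 set (9 arrays) and the Sin3A set (6 arrays) had separate fits, and a fit of all 15 gave the difference of effects. Fits were tested on simulated data. Same-numbered arrays of scrambled and shRNA 4 deviated together (r = 0.27, 0.52 and 0.17), each over the limit of 0.1 set for a pairing. Unlike-numbered ones did so too, at 0.28 for scrambled replicate 1 with shRNA 4 replicate 3 and 0.16 for scrambled replicate 3 with shRNA 4 replicate 1. Unlike-numbered pairs that held a replicate 2 were negative (-0.46 to -0.27). A pairing by number is thus not shown, and it has no basis in the labels. The replicate block changed no call of the 10 genes in the shRNA 4 comparison. The other 9 same-numbered combinations were not over 0.1 (lowest -0.29). Alternatives were median centring, repeated quantile normalization, a filter at the 25th percentile, an intensity trend, a replicate block, fewer groups and arrays left out. Genes named are the 10 members, the listed pathway genes that passed (up to 3 per direction and list), 3 genes most like Car4 (largest mean Tet1 change) and Car2 (largest Sin3A change), and the cluster's neighbours, which were added after the values were seen. Members and lists were chosen with earlier results of these data known. Upstream sequences are from RefSeq (GRCm38.p6), which held 6 of the 10 genes.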

Additional observations from a re-analysis of the deposited data

Results flagged for a closer look

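Differences between the effects of separate groups of arrays drew attention to 5 genes. The mean Tet1 effect minus the Sin3A effect was -1.45 for Car2, -1.24 for Car3, -0.64 for Car4, 1.02 for Car6 and 0.40 for Car12 on the log2 scale, each past the threshold in limma over all probe sets. The sets differ in scale, and for Car4, which fell in both, the gap cannot be told apart from that. Car2 and Car3 also differed between the Tet1 hairpins, by 0.51 and 0.50 higher with shRNA 5. These differences stayed within 0.48 to 0.55 and 0.47 to 0.52 under all 16 alternatives, and the hairpin groups did not overlap, but the calls were lost under 12 and 11 of them.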

How the results depend on the processing

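The calls of Car2, Car3 and Car4 held in each knockdown under every alternative run, as did those of Car6 and Car12 for the Sin3A shRNA, with Car6 absent under the filter. No call changed sign. Without 1 array at a time, 3 to 4 of the 10 genes were called with shRNA 4 (4 with all arrays), 3 to 5 with shRNA 5 (5), 5 to 7 with the Sin3A shRNA (6) and 0 to 1 between the hairpins (2). When a fit held just the groups being compared, 3 were called with shRNA 5 and 0 between the hairpins. Between the hairpins 0 were also called with a replicate block and 0 without scrambled replicate 2 and shRNA 4 replicate 2, arrays that stood apart in an earlier analysis. With the block, 4, 4, 6 and 5 genes were called with shRNA 4, shRNA 5, the Sin3A shRNA and for the difference of effects. It removed the Car6 call for shRNA 5 (adjusted p = 0.0506), and the causes were not tested. Over all probe sets the hairpin contrast gave 30 calls, and 0 to 36 without 1 array, 0 with the block or only the groups compared, 1 without both arrays, 61 with the filter, 48 with the trend, and 33.3% higher calls after repeated quantile normalization (40% as deposited). The Sin3A count fell from 5261 to 3359 without replicate 2 of that shRNA. Each gene had 1 probe set, so no other probe set was tried.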
